A study of Mus musculus with 7 samples.

Results

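Transcripts of 7 genes of the neurotrophin system were followed in mouse hippocampus: the secreted growth factors Bdnf and Ntf3, the receptor kinases Ntrk2 and Ntrk3, the p75 receptor Ngfr, and the sorting receptors Sort1 and Sorl1. They were found in the count tables by matching these symbols to Ensembl identifiers, and all 7 were present among the 55416 genes listed for each library. Hippocampi of age-matched males of the CD1 stock, which is outbred, were used for RNA-seq. Untreated mice served as control and gave 3 libraries, replicates 1 to 3. DMSO mice received the vehicle alone on the same schedule and gave 2 libraries, replicates 2 and 3, and ONX-0914 mice received 10 mg/kg of ONX-0914, an inhibitor of the immunoproteasome, intraperitoneally 2 times per week for 2 months and gave 2 libraries, replicates 1 and 2. The age of the mice in numbers, and whether each library came from a different animal, are not given in the sources used here, so the p-values below measure only the spread between these libraries, which may be technical. As the mice are outbred, genotype also differs between animals.

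Neurotrophins are made as precursors, cut into mature proteins and released from neurons, and in the hippocampus they are best known for their part in synapse growth and long-term potentiation. Mature BDNF binds TrkB, the product of Ntrk2, and mature NT-3, the product of Ntf3, binds TrkC, the product of Ntrk3. The uncut precursors bind p75 (Ngfr) together with sortilin (Sort1), which also steers BDNF into secretory vesicles, while SorLA (Sorl1) is a relative of sortilin known for the sorting of the amyloid precursor protein. In the adult brain, Bdnf is transcribed by excitatory neurons from several promoters, some of which respond to neuronal activity.

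The 2 ONX-0914 libraries did not resemble each other, and this touches every value below. ONX-0914 replicate 2 had a total of 13782270 counts on genes, where the remaining 6 libraries had 2842675 to 3877006. The chi-square per degree of freedom between replicate counts was 51.0 for the ONX-0914 pair and 2.06 to 2.54 for the pairs within the other groups. The share of mitochondrially encoded genes was 3.71% for the deeper ONX-0914 library and between 0.818% and 1.59% for all others. In ONX-0914 replicate 1 the summed level of 6 CA3 neuron markers was 203 CPM (counts scaled to a common library size), against 970 to 1091 CPM in the controls, and that of 7 CA1 markers was 212 CPM, against 577 to 649 CPM. The summed level of 11 striatum markers was 1418 CPM for this library, against 243 to 275 CPM, with 11 of 11 above all controls. That of 14 thalamus and midbrain markers was 983 CPM, against 103 to 136 CPM, with 13 of 14 above all controls and Irx2 and Pax7 at 0 in every control. In ONX-0914 replicate 2 the CA3 sum was 611 CPM, the CA1 sum 687 CPM, the striatum sum 212 CPM and the thalamus and midbrain sum 130 CPM. Neocortex markers summed to 358 CPM there, against 224 to 296 CPM, with 6 of 8 above all controls and 1 below. Microglia markers summed to 472 CPM, against 290 to 311 CPM, with 5 of 8 above and 2 below. The microglia sum was also above the controls in ONX-0914 replicate 1, at 345 CPM, and in DMSO replicates 2 and 3, at 334 and 374 CPM. The interneuron sum was 1291 CPM for replicate 1, against 590 to 641 CPM, with 4 of 8 above and 2 below. Endothelial markers lay above the controls in both ONX-0914 libraries, at 305 and 294 CPM against 169 to 178 CPM, with 7 of 7 genes above in each. Their sum was 174 CPM in DMSO replicate 2 and 221 CPM in DMSO replicate 3. The part of these differences in the results was not tested. In whole tissue, fewer cells of a type and less RNA per cell cannot be told apart.

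**Figure D1:**
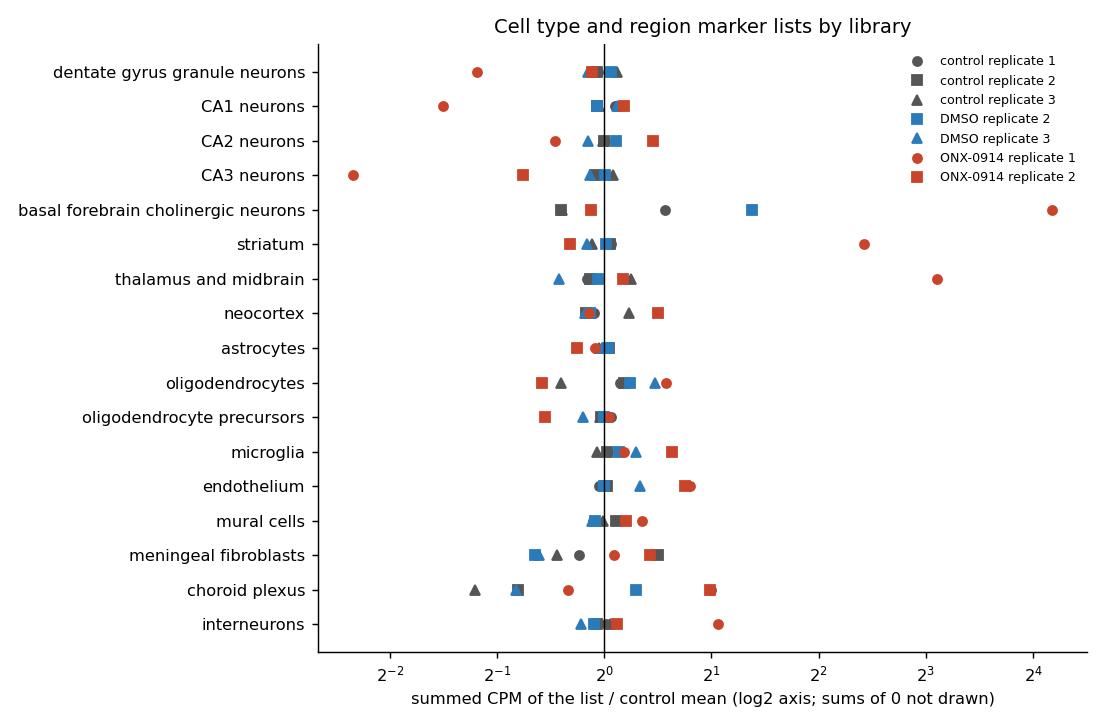
Summed CPM of 17 cell type and region marker lists, divided by the mean of the 3 control libraries, on a log2 axis. Each symbol is a library, with colour for the group and shape for the replicate number, and a sum of 0 is not drawn. ONX-0914 replicate 1 is the farthest right for striatum, thalamus and midbrain and cholinergic neurons and the farthest left for the 4 lists of hippocampal neurons. For CA2 neurons this holds for the sum only, since 2 of the 6 markers lay above all controls in that library and 1 below.

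Bdnf is the member with the best described promoters, and 2 stretches of promoter sequence are shown here because, of the 13 RefSeq promoter windows that matched 5 of the members, they were the only ones that held TGACG, the core of the site bound by the activity-regulated factor CREB. Each window is 300 bases around an annotated transcription start, on the GRCm38.p6 build, printed 5′ to 3′ on the gene's strand, and the capitals mark TGACG or its reverse complement CGTCA.
Bdnf, chr2:109692186-109692485, + strand: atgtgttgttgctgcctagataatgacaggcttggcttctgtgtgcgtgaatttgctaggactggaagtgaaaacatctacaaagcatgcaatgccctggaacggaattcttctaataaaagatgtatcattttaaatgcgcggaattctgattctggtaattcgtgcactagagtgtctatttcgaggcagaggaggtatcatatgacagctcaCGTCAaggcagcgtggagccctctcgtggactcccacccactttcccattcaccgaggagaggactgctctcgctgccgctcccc
Sorl1, chr9:42124248-42124547, - strand: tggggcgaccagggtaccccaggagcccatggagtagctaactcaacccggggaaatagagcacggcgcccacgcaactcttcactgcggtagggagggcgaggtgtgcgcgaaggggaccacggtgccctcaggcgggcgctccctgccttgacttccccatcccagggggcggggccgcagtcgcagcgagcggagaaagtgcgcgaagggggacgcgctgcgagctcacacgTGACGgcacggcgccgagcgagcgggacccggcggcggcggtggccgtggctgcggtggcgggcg

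The match began at -35 from the start in the Bdnf window and at -15 in the Sorl1 window. On either strand, TGACG occurred in 20.8% of the 32851 windows of all genes, and the full palindrome TGACGTCA, which contains it, in 1.79% of all windows and in 0 of the 13. The core of the element bound by NPAS4, an activity-induced factor, was searched as TCGTG and occurred in 3 of the 7 Bdnf windows and in 16% of all windows. The EGR motif GCGNGGGCG occurred in the printed Sorl1 window and in 5.55% of all windows. The E-box CACGTG occurred in that window and in 1 Ntf3 window, and in 7.15% of all windows, and in the Sorl1 window it overlaps the marked TGACG. Ntrk3 and Sort1 had no entry. The counts were summed over all transcripts of a gene, so they do not tell which promoter was used.

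Levels between genes were compared as CPM per kilobase of merged exons, over the 3 control libraries. Sort1 was highest, at 104 ± 1.81 (SD), followed by Sorl1 at 35.4 ± 2.04 and Ntrk2 at 30.7 ± 0.930. Ntrk3 came next at 6.08 ± 0.318, then Ntf3 at 4.31 ± 1.503 and Bdnf at 4.23 ± 0.846, which did not differ beyond their spread, and Ngfr was lowest at 0.300 ± 0.234. Per kilobase of the longest coding transcript the order of Ntrk2 (67.8) and Sorl1 (37.4) turned, as did that of Bdnf (6.16) and Ntf3 (4.98), so these 2 pairs have no fixed order. The receptors Sort1, Sorl1 and Ntrk2 were thus far above both ligands on this scale.

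All 7 genes passed the filter on low counts. None of the 7 was called at a false discovery rate (FDR) of 0.05 in any of the 3 group comparisons by edgeR's quasi-likelihood test, in which 0.114% of 13152 genes were called for ONX-0914 against control, 0.0152% for DMSO against control and 0.0456% for ONX-0914 against DMSO. DESeq2 also called 0 of the 7 in each, against 2.65%, 0.0186% and 1.55% of the genes it gave an adjusted p, although it gave none to Ngfr for ONX-0914 against control. At an unadjusted p under 0.05, edgeR counted 2 members, Ntf3 and Sort1, for ONX-0914 against control, where 18.6% of all genes passed. It counted 0 for DMSO against control (2.65% of all genes) and 1, Sort1, for ONX-0914 against DMSO (14.7%).

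**Figure D2:**
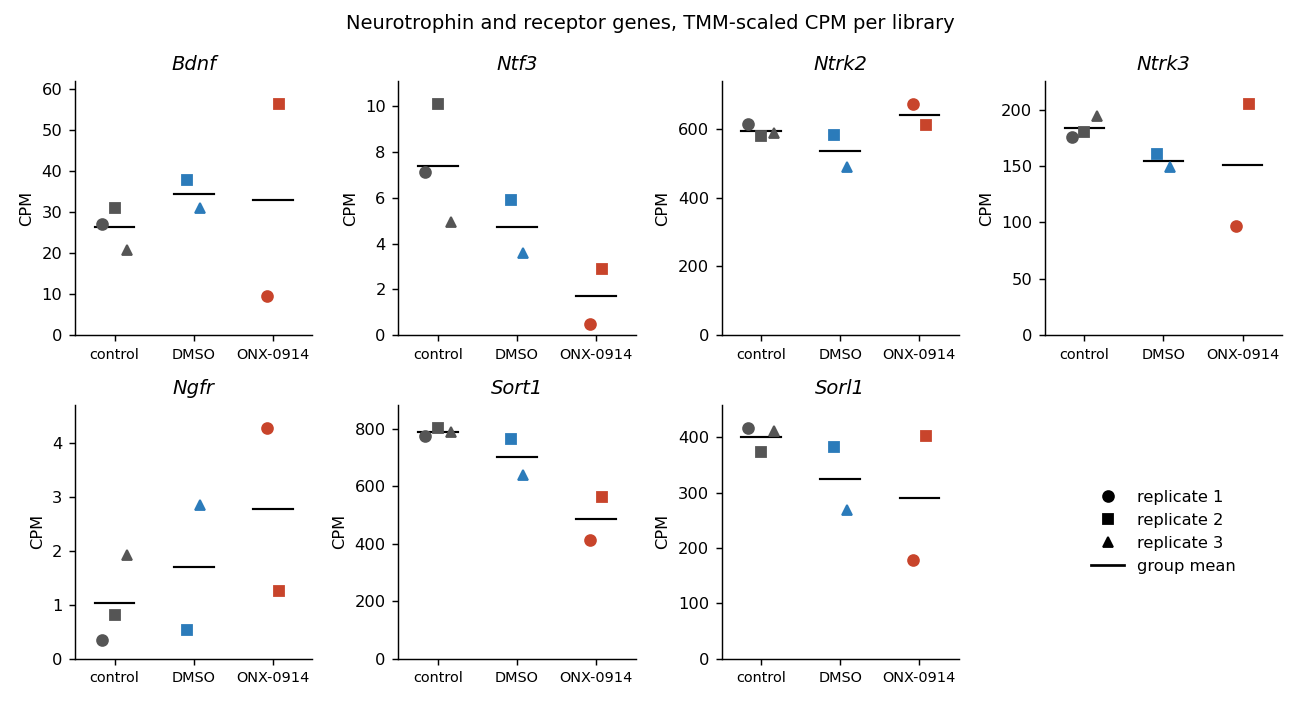
TMM-scaled CPM of each gene in each library, by group, with every vertical axis starting at 0. Symbols give the replicate number and the bar the group mean, over 3, 2 and 2 libraries. For Bdnf and Ntrk3 the 2 ONX-0914 libraries lie on opposite sides of the controls, and for Ntf3 and Sort1 both lie below them.

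The library-by-library view was less uniform than these counts. In ONX-0914 replicate 1, 5 members lay below all 3 controls, namely Bdnf, Ntf3, Ntrk3, Sort1 and Sorl1, while 32.3% of all genes did, and 2 members, Ntrk2 and Ngfr, lay above, while 36.8% of all genes did. In ONX-0914 replicate 2, 2 members lay below (Ntf3 and Sort1, with 38.8% of all genes), 2 lay above (Bdnf and Ntrk3, with 40% of all genes), and Ntrk2, Ngfr and Sorl1 lay within the control range. Ntf3 and Sort1 were therefore the members with both ONX-0914 libraries below all controls, which held for 16.3% of all genes. Bdnf and Ntrk3 had replicate 1 below and replicate 2 above, a pattern noticed after the values were seen, which held for 10.8% of all genes.

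**Figure D3:**
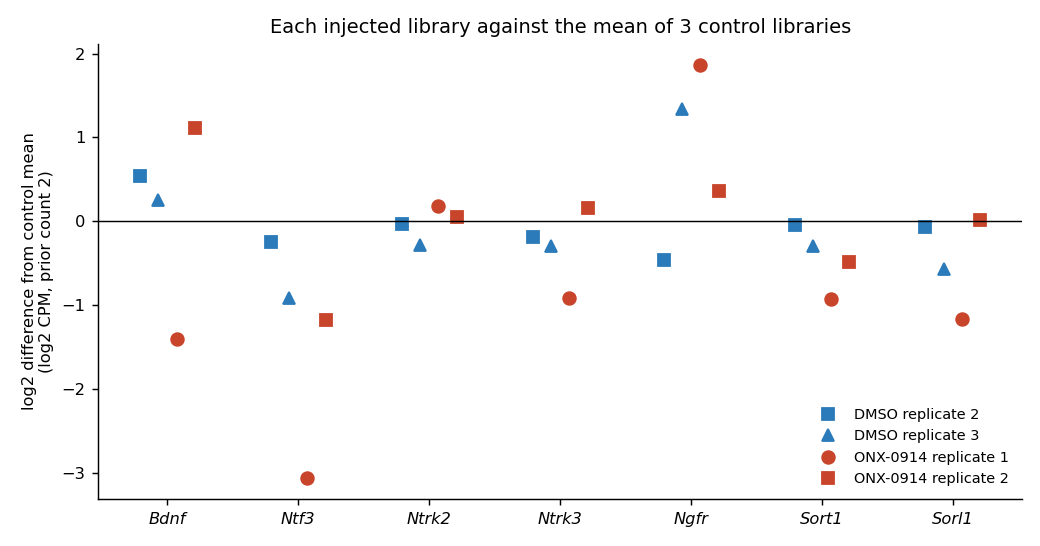
Difference of each injected library from the mean of the 3 controls in log2 CPM (prior count 2), for each gene, with 0 marking the control mean. The ONX-0914 symbols are widest apart for Bdnf, from -1.40 to 1.11, and close together for Ntrk2, at 0.18 and 0.05.

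Among the ligands, Bdnf encodes brain-derived neurotrophic factor, a major regulator of hippocampal plasticity. It was measured at 27.1, 31.1 and 20.7 CPM in control replicates 1 to 3, at 37.8 and 31.1 CPM in DMSO replicates 2 and 3, and at 9.56 and 56.4 CPM in ONX-0914 replicates 1 and 2. The 2 treated libraries were thus the lowest and the highest of all 7, with the controls between them. Their exact 95% binomial intervals, which cover counting error only, were 6.77 to 13.1 CPM from 38 reads and 52.6 to 60.3 CPM from 853 reads, so counting error did not bridge the gap. Log2FC for ONX-0914 against control was 0.38 (SE 0.57, 95% confidence interval -0.92 to 1.68, edgeR FDR 0.734). A mean of 33.0 CPM ± 33.1 (SD, n = 2) against 26.3 ± 5.26 (n = 3) describes neither treated library. Against DMSO the Log2FC was -0.02 (SE 0.62, edgeR FDR 0.992), and for DMSO against control it was 0.39 (SE 0.58, edgeR FDR 0.9999), with DMSO replicate 3 just inside the control range.

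Each of the ONX-0914 libraries alone gave a call for Bdnf, in opposite directions. With replicate 1 left out, Bdnf was called higher than control by edgeR (Log2FC 1.09, FDR 2.52e-05), and with replicate 2 left out it was called lower (Log2FC -1.46, FDR 0.00076). A single remaining treated library was assumed to vary like the other groups in these fits, and 51.2% of all genes were called in the first and 19% in the second.

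Ntf3 encodes neurotrophin-3, which in the adult hippocampus is known chiefly from dentate granule cells. Its levels were 7.13, 10.1 and 4.96 CPM in the controls, 5.90 and 3.57 CPM after DMSO and 0.503 and 2.91 CPM after ONX-0914. Both ONX-0914 libraries were below every other library, and DMSO replicate 3 was also below all controls. The counts were low, with 2 reads in ONX-0914 replicate 1 (95% interval 0.0610 to 1.82 CPM), 44 in replicate 2 and 18 to 37 in the controls. Log2FC was -1.79 (SE 0.56, 95% confidence interval -3.07 to -0.51) against control, with an unadjusted edgeR p of 0.0121 and an edgeR FDR of 0.170, so the difference did not pass the correction. Against DMSO the Log2FC was -1.18 (SE 0.64, edgeR FDR 0.403), with both ONX-0914 libraries below both DMSO libraries, and for DMSO against control it was -0.61 (SE 0.57, edgeR FDR 0.9999).

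The direction for Ntf3 was the same with either treated library alone. Log2FC was -1.35 (edgeR FDR 0.00404) without ONX-0914 replicate 1 and -3.79 (edgeR FDR 0.00134) without replicate 2, with the same shares of all genes called as above. The summed level of 8 dentate granule neuron markers was 405 to 459 CPM in the controls, 185 CPM for ONX-0914 replicate 1, with 7 of 8 below all controls, and 392 CPM for replicate 2, with 4 of 8 below and 2 above. The part of these markers in the Ntf3 values was not tested.

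Ntrk2 encodes TrkB, whose full-length form carries a kinase in neurons and whose truncated form is abundant in astrocytes, and the gene counts cover both forms. It was measured at 613, 579 and 587 CPM in the controls, at 581 and 488 CPM after DMSO and at 672 and 612 CPM after ONX-0914. The groups overlapped, with ONX-0914 replicate 1 the highest library, replicate 2 just under the highest control and DMSO replicate 3 the lowest. The Log2FC of 0.11 (SE 0.17, 95% confidence interval -0.29 to 0.52, edgeR FDR 0.738) leaves room for a change of either sign up to the size of these bounds. This was the narrowest interval of the 7 genes for ONX-0914 against control. Against DMSO the Log2FC was 0.26 (SE 0.19, edgeR FDR 0.514), with both ONX-0914 libraries above both DMSO libraries, and for DMSO against control it was -0.15 (SE 0.18, edgeR FDR 0.9999). The 8 astrocyte markers summed to 6306 to 6738 CPM in the controls and to 6126 and 5479 CPM after ONX-0914. Single markers did not all follow the sum. In ONX-0914 replicate 1, 5 of the 8 lay above all controls and 2 below, and in replicate 2, 1 lay above and 6 below. Their part in the Ntrk2 values was not tested.

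Ntrk3 encodes TrkC, the kinase that NT-3 prefers, and was measured at 176, 180 and 194 CPM in the controls, at 161 and 149 CPM after DMSO and at 97.2 and 205 CPM after ONX-0914. As for Bdnf, ONX-0914 replicate 1 was below and replicate 2 above all controls, with 95% intervals of 87.7 to 107 CPM and 198 to 212 CPM. The interval of replicate 2 overlapped that of control replicate 3 (180 to 209 CPM) and lay above those of control replicates 1 and 2, and that of replicate 1 lay below those of all 3 controls. Log2FC against control was -0.27 (SE 0.28, 95% confidence interval -0.93 to 0.38, edgeR FDR 0.618). It was 0.15 without replicate 1 and -0.92 without replicate 2. Both DMSO libraries were below all controls, with a Log2FC of -0.24 (SE 0.29, edgeR FDR 0.9999), and ONX-0914 against DMSO gave -0.03 (SE 0.31, edgeR FDR 0.968).

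Ngfr encodes p75, which in the adult forebrain is known chiefly from basal forebrain cholinergic neurons, cells that send fibres to the hippocampus but lie outside it. It had 1, 3 and 7 reads in the controls, 2 and 8 in the DMSO libraries and 17 and 19 after ONX-0914. On the scaled level these were 0.357, 0.818 and 1.93 CPM in the controls, 0.537 and 2.86 CPM with DMSO and 4.28 and 1.26 CPM with ONX-0914. ONX-0914 replicate 1 was the highest library, while replicate 2, which was sequenced more deeply, lay within the control range, and 3 reads corresponded to 0.198 to 1.07 CPM. Log2FC against control was 1.04 (SE 0.90, 95% confidence interval -1.01 to 3.10, edgeR FDR 0.539), a width at which even a large change was not detectable. Leaving out ONX-0914 replicate 1 gave 0.19 and leaving out replicate 2 gave 1.94, with no call by edgeR in either fit.

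Ngfr was listed beside 6 genes of cholinergic neurons (Chat, Slc5a7, Slc18a3, Lhx8, Gbx1 and Isl1), which do not separate those of the basal forebrain from those of other regions. Their summed level was 0.545 to 1.07 CPM in the controls, 0 to 1.88 CPM with DMSO, and then 13.1 CPM for ONX-0914 replicate 1 but 0.661 CPM for replicate 2. All 6 lay above the controls in replicate 1 and 0 of 6 did in replicate 2, and Lhx8 and Gbx1 were at 0 in every control. In replicate 1 the striatum markers were raised as well, at 1418 CPM against 243 to 275 CPM. Their part in the Ngfr values was not tested.

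Sort1 encodes sortilin, the sorting receptor that binds the precursors of neurotrophins. It was measured at 776, 803 and 788 CPM in the controls, at 765 and 640 CPM after DMSO and at 413 and 562 CPM after ONX-0914. Both ONX-0914 libraries were below all 5 others, and both DMSO libraries were below all controls, although DMSO replicate 2 was only just below. Log2FC was -0.69 (SE 0.21, 95% confidence interval -1.17 to -0.22) against control, with an unadjusted edgeR p of 0.00921 and an edgeR FDR of 0.158. Against DMSO it was -0.53 (SE 0.22, 95% confidence interval -1.03 to -0.02), with an unadjusted edgeR p of 0.0437 and an edgeR FDR of 0.328, and for DMSO against control it was -0.17 (SE 0.20, edgeR FDR 0.9999). The control libraries differed from each other by little, with 789 ± 13.7 CPM (SD, n = 3), against 487 ± 105 CPM (SD, n = 2) with ONX-0914.

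Sort1 was lower than in the controls with either treated library alone. With only ONX-0914 replicate 2 kept in the treated group, its Log2FC against control was -0.50. Keeping only replicate 1 gave -0.94. Against DMSO the Log2FC was -0.33 and -0.77 in the same order, in fits where 46% and 17% of all genes were called. Sort1 was the member with the smallest unadjusted p against control.

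Sorl1, which encodes SorLA, was measured at 417, 374 and 411 CPM in the controls, at 382 and 269 CPM after DMSO and at 178 and 403 CPM after ONX-0914. ONX-0914 replicate 1 was the lowest library, followed by DMSO replicate 3, while ONX-0914 replicate 2 and DMSO replicate 2 lay within the control range. Log2FC against control was -0.46 (SE 0.33, 95% confidence interval -1.21 to 0.29, edgeR FDR 0.463), and without replicate 2 it was -1.17. Without replicate 1 it was -0.00, so the lower group mean rested on that library. The Log2FC was -0.30 (SE 0.33, edgeR FDR 0.9999) for DMSO against control and -0.16 (SE 0.35, edgeR FDR 0.835) for ONX-0914 against DMSO.

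With DMSO, Ntrk3 and Sort1 were the members with both libraries below all controls, which held for 15% of all genes, and no member had both above. In DMSO replicate 3 alone 5 members were below all controls (Ntf3, Ntrk2, Ntrk3, Sort1 and Sorl1), against 2 in replicate 2. The share of all genes was not counted for single DMSO libraries, so these counts are not read as a result about the members. In the single ONX-0914 libraries that share was 32.3% for replicate 1 and 38.8% for replicate 2. The comparisons of DMSO and of ONX-0914 with control share the 3 control libraries, so values that fell on the same side in both are not separate evidence.

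**Figure D4:**
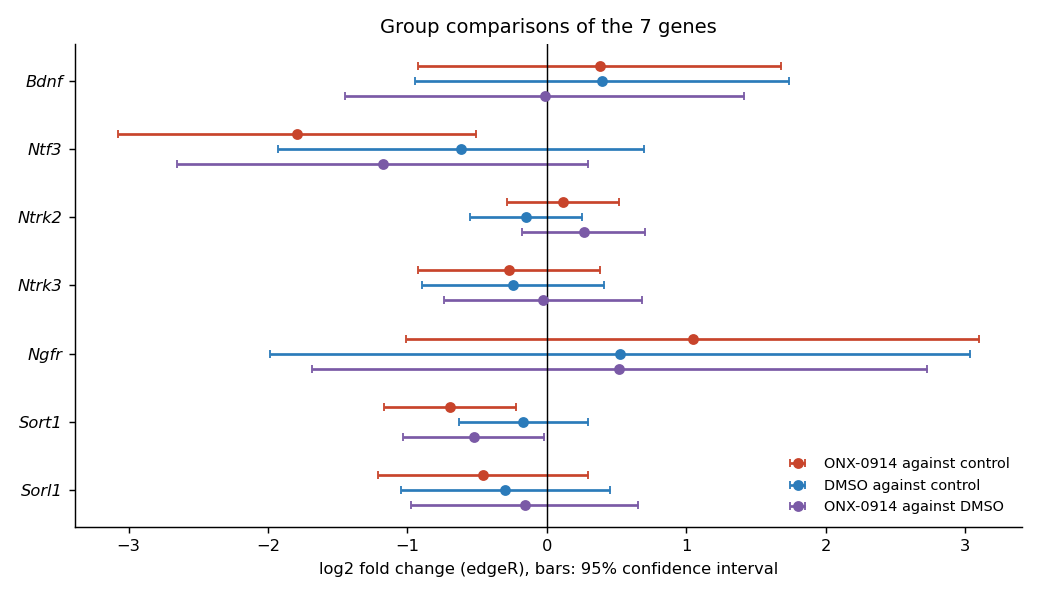
Log2FC of each gene in the 3 group comparisons, as points with 95% confidence intervals computed from edgeR's F statistic. The intervals for Ntf3 and Sort1 against control, and for Sort1 against DMSO, do not include 0 before any adjustment for the number of genes, and the intervals for Ngfr are the widest.

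Ratios of counts within a library do not depend on how library sizes are scaled. Bdnf reads per 1000 Ntrk2 reads, the ligand against its receptor, were 44.2, 53.7 and 35.2 in the controls, 65.1 and 63.6 with DMSO and 14.2 and 92.2 with ONX-0914. The ligand was thus lowest and highest relative to TrkB in the 2 treated libraries, and the groups overlapped, with a log2 difference of -0.27 (exact permutation test over libraries, two-sided, p = 0.8). Ntrk3 reads per 1000 Ntrk2 reads were 287, 311 and 331 in the controls, 277 and 305 with DMSO and 145 and 335 with ONX-0914 (log2 difference -0.49, exact permutation p = 0.5). Sorl1 reads per 1000 Sort1 reads were 537, 466 and 521 in the controls, 500 and 420 with DMSO and 432 and 717 with ONX-0914 (log2 difference 0.13, exact permutation p = 0.8). With 3 libraries against 2 there are 10 arrangements and the smallest p is 0.1, so this test could not pass 0.05. In ONX-0914 replicate 2 Sorl1 was thus the highest of all libraries relative to Sort1, although its own level was within the control range.

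Other genes of the family were also read. Ntf5, which encodes neurotrophin-4, did not pass the filter on low counts, with at most 5 reads in a library. Further relatives of sortilin had Log2FC values of opposite sign. Sorcs3 was measured at 94.5, 86.7 and 84.0 CPM in the controls, 73.0 and 66.8 CPM with DMSO and 44.8 and 46.9 CPM with ONX-0914, and Sorcs1 at 13.2, 11.2 and 14.6, then 10.5 and 9.28, then 29.7 and 20.7 CPM. The 2 ONX-0914 libraries were alike for Sorcs3 and below all others, whereas for Sorcs1 both were above all others. Log2FC against control was -0.95 for Sorcs3 (SE 0.16, edgeR FDR 0.0728) and 0.94 for Sorcs1 (SE 0.25, edgeR FDR 0.135), neither past the threshold, and Sorcs2 had a Log2FC of 0.31 (SE 0.19, edgeR FDR 0.388). With either ONX-0914 library left out, Sorcs3 and Sorcs1 were called by edgeR. Sorcs3 was at -0.92 (FDR 1.88e-05) without replicate 1 and -0.98 (FDR 0.000105) without replicate 2, and Sorcs1 at 0.66 (FDR 0.00936) and 1.19 (FDR 0.000605), with the shares of all genes called given for Bdnf.

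Of the genes that cut or guide proneurotrophins, 8 of 12 were tested, and none was called for ONX-0914 against control, with 1 positive and 7 negative Log2FC values and a median of -0.20, where 53.8% of all genes were positive and their median was 0.05. Cpe, a sorting receptor and peptidase of secretory granules, had a Log2FC of -0.37 (SE 0.25), and the convertase gene Pcsk1 had 0.31 (SE 0.25). Of 26 genes for adaptors and effectors of Trk receptors, none was called, with 10 positive and 16 negative values and a median of -0.10. Pik3ca, a catalytic subunit of PI3 kinase, had a Log2FC of 0.75 (SE 0.18, edgeR FDR 0.119). Of 16 p75 partners and effectors none was called, with a median of -0.04, and the lowest p values were those of Traf6 (0.93, SE 0.34), a signalling adaptor, and Arhgdia (0.53, SE 0.24). Of 12 sorting partners of sortilin and its relatives none was called, with a median of -0.06. Here Vps26b, a retromer subunit, had a Log2FC of -0.58 (SE 0.23) and Grn, the gene of the sortilin ligand progranulin, 0.62 (SE 0.33). Of the 13 regulators of Bdnf transcription, 12 were tested and none was called, with a median of 0.03. Npas4, an activity-induced factor, had a Log2FC of 2.09 (SE 0.77, edgeR FDR 0.214) and Mef2d, a further activity-regulated factor, -0.48 (SE 0.18, edgeR FDR 0.221). Npas4 was measured at 1.78, 2.18 and 3.30 CPM in the controls, 4.56 and 5.35 CPM with DMSO and 1.76 and 17.3 CPM with ONX-0914, so its positive value came from replicate 2, the library with the high Bdnf.

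A list of 17 genes known to be induced by BDNF, many of which also answer to neuronal activity itself, was set beside Bdnf. Both DMSO libraries lay above all controls for 10 of the 17, against 15.7% of all genes, and the median Log2FC was 0.64, against -0.00 over all genes, with 15 positive and 2 negative values where 49.5% of all genes were positive. No gene of the list was called for DMSO against control by edgeR over all 7 libraries, while 6 had an unadjusted p under 0.05, against 2.65% of all genes. Without either ONX-0914 library in turn, 9 of the 17 were called higher by edgeR in each fit, with 0.627% of all genes called higher without replicate 1 and 0.704% without replicate 2. Of the DMSO libraries, Bdnf itself lay above all controls in replicate 2 only.

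**Figure D5:**
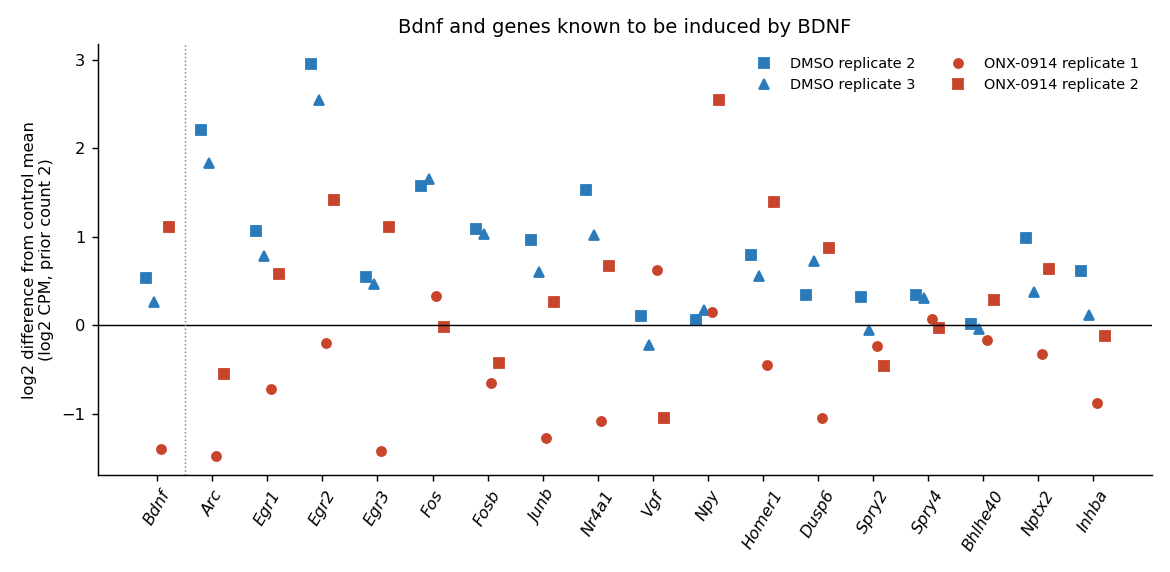
Difference from the control mean in log2 CPM (prior count 2) for Bdnf and for 17 genes known to be induced by BDNF, in the 4 injected libraries. Both DMSO libraries lie above 0 for most genes. ONX-0914 replicate 1 lies below 0 and replicate 2 above 0 for Bdnf, Egr1, Egr2, Egr3, Junb, Nr4a1, Homer1, Dusp6, Bhlhe40 and Nptx2. For Egr2, Bhlhe40 and Nptx2 replicate 1 is still within the control range. Both ONX-0914 libraries lie below 0 for Arc, Fosb, Spry2 and Inhba and above 0 for Npy, and the order is reversed for Fos, Vgf and Spry4. The share of all genes with each order of signs was not counted.

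For ONX-0914 against control the same list had 11 positive and 6 negative values with a median of 0.07. Replicate 1 was below all controls for 10 of the 17 (32.3% of all genes) and above for 2 (36.8%). Replicate 2 was below for 4 (38.8% of all genes) and above for 9 (40%). Calls by edgeR turned with the library left out. They were 6 higher and 3 lower without replicate 1, where 24.8% and 26.4% of all genes were called in these directions, and 1 higher and 7 lower without replicate 2 (9.52% and 9.5%). For ONX-0914 against DMSO the median was -0.49, with both ONX-0914 libraries below both DMSO libraries for 10 of the 17, against 19.7% of all genes. This comparison shares its DMSO libraries with the one above. Here edgeR called 3 higher and 9 lower without replicate 1 (22.3% and 23.7% of all genes), and 1 higher and 12 lower without replicate 2 (8.58% and 8.46%). With all 7 libraries Arc, which encodes a regulator of synaptic glutamate receptors, was the gene of the list called here. Arc was measured at 107, 88.9 and 95.3 CPM in the controls, 448 and 345 CPM with DMSO and 34.5 and 66.0 CPM with ONX-0914, and the 3 groups did not overlap. Arc was lower with ONX-0914 than with DMSO by a Log2FC of -2.96 (SE 0.32, edgeR FDR 0.0371), and leaving out ONX-0914 replicate 1 (-2.60, edgeR FDR 5.51e-10) or replicate 2 (-3.53, edgeR FDR 1.48e-11) kept it called lower. The call was lost with the compared groups alone, with the replicate number as a block, without any 1 of the controls and without DMSO replicate 3, where edgeR called 0 genes for this comparison. For DMSO against control Arc had a Log2FC of 2.03 (SE 0.27, edgeR FDR 0.187). It was called higher there when ONX-0914 replicate 1 (2.04, edgeR FDR 5.02e-10) or replicate 2 (2.04, edgeR FDR 8.91e-11) was left out. Npy, the gene of neuropeptide Y, had a Log2FC of 1.87 (SE 0.59, edgeR FDR 0.174) against control, with 44.2 CPM for ONX-0914 replicate 2 and 5.70 to 9.64 CPM for all others. The interneuron markers Sst and Vip stood high in the same library, at 111 CPM against 25.1 to 31.9 CPM in the controls and at 44.5 CPM against 9.98 to 13.2 CPM, while the sum of the 8 interneuron markers, of which Npy is a member, was 672 CPM against 590 to 641 CPM, with 4 above and 4 below all controls. Their part in the Npy value was not tested.

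The genes whose profile over the 7 libraries was closest to each member were ranked by the root-mean-square difference of log2 CPM after centring on the mean. For Bdnf they were Egr3 (0.17), an activity-induced transcription factor gene, and Serpina3n (0.17), where the standard deviation of Bdnf itself was 0.78. Egr3 was measured at 85.2, 74.2 and 71.9 CPM in the controls, 112 and 106 CPM with DMSO and 28.4 and 166 CPM with ONX-0914. The ONX-0914 libraries thus lay around the controls in the same order as for Bdnf, which held for 10.8% of all genes. The closest to Ntf3 were Thsd4 (0.31) and Slc9a2 (0.32), and to Ngfr Gm10031 (0.37) and 4930539E08Rik (0.38), at low counts. Those closest to the receptors with high counts were nearer: Impad1 (0.03) and Hdlbp (0.05) for Ntrk2, Sipa1l1 (0.04) and Sbf1 (0.05) for Ntrk3, Smpd3 (0.05) and Pip5k1a (0.07) for Sort1, and E2f3 (0.06) and Lin7b (0.09) for Sorl1.

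Genes that overlap the members could share reads with them if counting ignored the strand, which is not given in the sources used here. In the GENCODE M21 annotation the exons of Bdnf, Sort1 and Sorl1 overlap the antisense genes Gm45346, Gm12523 and Gm16214, which had at most 1, 4 and 1 reads in a library. Ntrk3 holds the antisense gene Gm9885 in an intron, with 19 to 93 reads and no shared exon.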

How the data were processed

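Raw read counts per gene, 1 table per library, were deposited by the authors for 7 hippocampal libraries made with a directional kit. The submitters' processing notes name Trimmomatic 0.39, STAR 2.7.3a, featureCounts 2.00 and GRCm39. The strand setting and the annotation release are not given in the sources used here. Of the reads listed as assigned, without a feature or ambiguous, 89.6% to 91.4% were assigned to genes. The 12 summary lines were left out of the tests. Symbols came from GENCODE M21, and promoter windows came from RefSeq (GRCm38.p6).

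The tests used edgeR 4.0.16 under R 4.3.3 (filterByExpr over the groups, TMM, glmQLFit and glmQLFTest, 1 mean per group over all 7 libraries), with Benjamini–Hochberg adjustment over 13152 genes and a threshold of 0.05. CPM values use TMM-scaled library sizes. Fits were tested on simulated counts. Alternatives were DESeq2 1.42.0, other scalings and filters, the compared groups alone, a replicate block and leaving out each library. The earlier form of the quasi-likelihood fit was added after seeing the data.

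The 7 members and all lists were chosen with earlier results of these data known. The rule named all members and family genes, with the 2 genes of lowest p for ONX-0914 against control per other list and the 2 closest profiles per member. Of the genes so named, 3 are left out here. The values by library of Npas4, Arc and Egr3, and the order of signs by which genes are grouped under the figure of BDNF-induced genes, were chosen after the values were seen.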

Additional observations from a re-analysis of the deposited data

How the results depend on the processing

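No member was called in any comparison under DESeq2, RLE size factors, total counts, no filter, at least 10 counts in every library, the compared groups alone, the replicate block or the earlier quasi-likelihood form, where Ngfr was not tested with the compared groups alone against control or for DMSO against control, and had no adjusted p with DESeq2 against control. Over all genes, the 15, 2 and 6 calls for ONX-0914 against control, DMSO against control and ONX-0914 against DMSO became 353, 5 and 214 with DESeq2, 578, 11 and 297 with no filter, 11, 0 and 10 with at least 10 counts in every library, which left 5 members tested, and 3, 141 and 0 with the compared groups alone. With total counts the third became 3, and with RLE size factors 11. Leaving out any 1 control or DMSO library gave no called member. Leaving out 1 ONX-0914 library left a single treated library, and some members were then called in both ONX-0914 comparisons. Large shares of all genes were called in the same fits, as given for Bdnf and Sort1. These calls are therefore not read as a result about the members. No gene at all was called without any 1 of the controls, at a smaller control group.

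For Bdnf against DMSO the Log2FC of -0.02 turned to 0.15 with total counts, 0.037 with no filter and 0.0073 with at least 10 counts. For Ntrk3 against DMSO the value of -0.03 turned to 0.12 with total counts and 0.0079 with no filter. Total counts moved the median Log2FC of all genes against control from 0.05 to 0.19. They also gave 4 members with both DMSO libraries outside the controls, in place of 2.

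Whether replicate numbers pair the samples is not given in the sources used here. The deviations of same-numbered libraries from their group means correlated at -0.096 to 0.064. In a group of 2 libraries the deviations mirror each other, so this check cannot settle whether the numbers pair. With the replicate block, Log2FC was -0.040 for Bdnf against control and 0.10 for Ntrk3 against DMSO, 0 members were called, and 1, 0 and 0 genes were called in place of 15, 2 and 6.

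With 1 library left out, Log2FC against control ranged from -1.46 to 1.09 for Bdnf and -0.92 to 0.15 for Ntrk3. Against DMSO it ranged from -1.86 to 0.69 for Bdnf, -0.68 to 0.39 for Ntrk3, -0.33 to 2.03 for Ngfr and -0.88 to 0.29 for Sorl1. For DMSO against control it ranged from -0.98 to 1.38 for Ngfr. The number of members outside the controls ranged from 3 to 7 for ONX-0914 (7 without ONX-0914 replicate 2). For DMSO it ranged from 2 to 6 (5 without control replicate 2 and 6 without DMSO replicate 2). Leaving out a library loosens this criterion, since fewer libraries must lie apart. In ONX-0914 replicate 1 alone, 32.3% of all genes lay below and 36.8% above the controls, and in replicate 2 alone 38.8% and 40%. The share was not counted for single DMSO libraries. The log2 ratio difference ranged from -1.62 to 1.08 for Bdnf to Ntrk2, -1.10 to 0.12 for Ntrk3 to Ntrk2 and -0.23 to 0.50 for Sorl1 to Sort1, the sign turning without ONX-0914 replicate 1 for the first 2 and without replicate 2 for the last. The cause was not tested. Counts were at most 19 for Ngfr and 44 for Ntf3 in a library, and each treated group had 2 libraries.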
